A study of Mus musculus with 12 samples.

Results

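Mitochondrial ribosomal proteins were followed in mouse oocytes across the pubertal transition. They were taken as every gene in the deposited counts whose symbol starts with Mrpl or Mrps and goes on with a digit, and 78 of the 24562 genes listed fulfilled this rule. Of these, 77 were among the 13943 genes with enough counts to be tested, and Mrpl23 was not. Oocytes were collected from antral follicles of unstimulated ovaries of CD-1 mice, an outbred strain, at postnatal day (PND) 13, PND 16 and PND 40. The PND 16 mice were divided by body weight into PND 16 small and PND 16 large. Each of the 4 cohorts was represented by 3 pools of 18 to 45 oocytes each. No genetic change or treatment of the mice is stated. The cohorts differed in age and, at PND 16, in weight. In the study, body weight, oocyte diameter and follicle diameter also rose across the pubertal transition. Age and these traits thus cannot be told apart between cohorts of different age. Oocytes of PND 13 and PND 16 small mice stand here for cells that mostly cannot complete meiosis in culture (non-competent). Those of the PND 16 large cohort and of PND 40 mice stand for cells of which more can (competent). The study reports that few oocytes of the lighter mice were competent and that more of those from heavier mice were. It states that this split by weight rested on a small number of animals and does not show the data. Competence is thus a property of the cohort and was not measured in the sequenced cells.

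The mitochondrial ribosome (mitoribosome) translates the few proteins that mitochondrial DNA encodes, all of them core subunits of the respiratory chain and ATP synthase. Its RNAs are made in the mitochondrion, whereas all of its proteins are encoded in the nucleus, made in the cytosol and imported. The small subunit reads the messenger RNA and the large subunit joins amino acids and guides the new chain to the inner membrane. Some of the proteins descend from proteins shared by all ribosomes, some have relatives in bacterial ribosomes alone, and others are found only in mitochondria. Mitochondria multiply greatly while the oocyte grows, and the egg passes them on to the embryo. In humans, inherited variants of several of these genes, among them MRPS22, MRPS7 and MRPL50, have been linked to ovarian insufficiency.

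By their usual assignment, 26 of the 78 proteins belong to the small subunit and 51 to the large subunit. Mrps30 and Mrps18a are counted with the large subunit, where their proteins sit despite their names. Mrps36, now known as a part of the 2-oxoglutarate dehydrogenase complex, was assigned to neither. The genes lie on 17 chromosomes.

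The proximal promoters of some of the genes that changed are shown here. Nuclear respiratory genes are classically described as targets of ETS factors such as GABPA, of NRF1 and of YY1. The RefSeq table used holds 300 bases around the start of 27025 genes on GRCm38.p6, and 69 of the 78 members matched it by symbol. Mrps34 did not. Each line gives the 100 bases before the RefSeq start of a gene, 5′ to 3′ on the strand of the gene. Capitals mark CCGGAAG (an ETS core, also found as CTTCCGG on the other strand) and CGCATGCG (the NRF1 core, which reads alike on both strands).
Mrps31 (chr8:22411240-22411339, plus strand): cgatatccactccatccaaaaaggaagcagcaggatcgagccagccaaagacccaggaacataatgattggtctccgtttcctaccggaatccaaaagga
Mrpl35 (chr6:71823785-71823884, minus strand): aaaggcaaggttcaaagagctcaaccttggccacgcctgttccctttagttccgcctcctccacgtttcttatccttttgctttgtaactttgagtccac
Mrpl22 (chr11:58171564-58171663, plus strand): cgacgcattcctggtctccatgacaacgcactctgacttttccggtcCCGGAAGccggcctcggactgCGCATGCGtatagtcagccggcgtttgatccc
Mrpl43 (chr19:45006443-45006542, minus strand): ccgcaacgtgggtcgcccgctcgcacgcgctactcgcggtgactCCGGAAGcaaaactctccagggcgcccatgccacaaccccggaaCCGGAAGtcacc
Mrps26 (chr2:130563657-130563756, plus strand): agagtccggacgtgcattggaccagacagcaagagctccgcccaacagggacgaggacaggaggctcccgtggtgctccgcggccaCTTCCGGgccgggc
The promoter of Mrpl43 held the ETS core at 2 places, those of Mrpl22 and Mrps26 held it once, and those of Mrps31 and Mrpl35 showed neither core in these bases. For Mrpl35 the bases shown lie inside the gene model of GENCODE M21, which begins further upstream, at chr6:71826969. Bases before that start were not searched.

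Over the whole 300-base windows, searched on both strands, the ETS core was found in 26 of the 69 members (37.7%). The same letters stood in 9.93% of the 27025 promoters and in 18.7% of the 10862 promoters of tested genes. The NRF1 core was present in 7 members (10.1%), against 2.07% of all promoters and 4.21% of those of tested genes. AAGATGGC, the YY1 core, was present in 12 members (17.4%), against 3.19% and 5.06%. These shares were not tested. Such a match is a description of letters, and binding was not measured.

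As a whole, the members were higher in both competent cohorts. Summed over the 78 genes, levels in CPM (counts as a share of the library, with library sizes adjusted by edgeR's TMM factors) were 1269 ± 66.4 (mean ± SD, n = 3 pools) at PND 13. They were 1194 ± 60.3 in PND 16 small, 1439 ± 26.8 in PND 16 large and 1440 ± 34.6 at PND 40, n = 3 each. The sums of the 6 non-competent pools lay between 1135 and 1345 and those of the 6 competent pools between 1402 and 1470, so that the groups did not overlap. PND 16 large and PND 40 overlapped with each other, as did PND 13 and PND 16 small. The separation depended on scaling and on Mrpl9: scaled by total counts alone, the PND 13 pools reached 1391 and the PND 16 large pools started at 1379, and without Mrpl9 the highest non-competent sum (1297) exceeded the lowest competent sum (1251). The members took 0.108 to 0.146% of all counts of a pool.

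**Figure D1:**
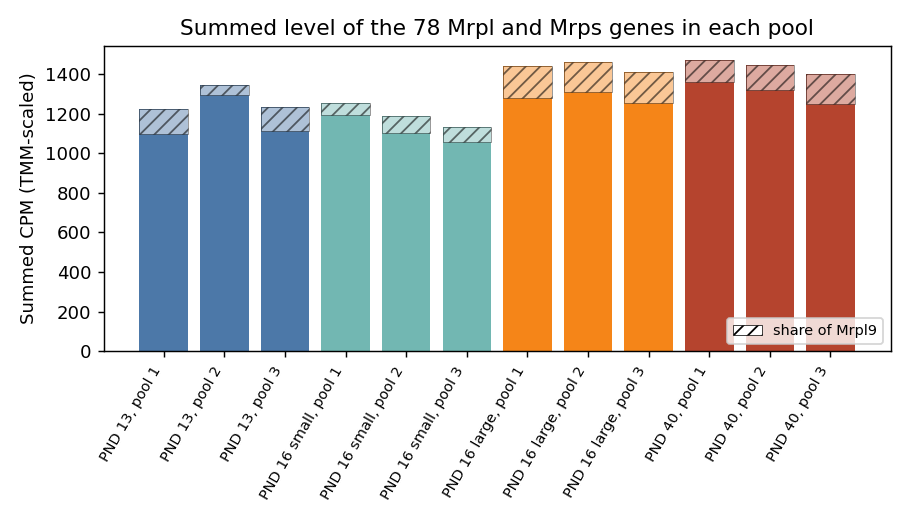
Summed TMM-scaled CPM of the 78 mitochondrial ribosomal protein genes (y axis, linear, from 0) in each of the 12 pools (x axis), coloured by cohort, with the share of Mrpl9 hatched. The 6 pools of PND 16 large and PND 40 stand at 1402 to 1470, above the 1135 to 1345 of the PND 13 and PND 16 small pools, and the hatched share changes from pool to pool.

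Pools of 1 cohort differed little for most members. The median coefficient of variation of the 77 tested members was 13.7% at PND 13, 15.0% in PND 16 small, 8.54% in PND 16 large and 9.32% at PND 40. For all tested genes it was 14.4%, 19.6%, 10.5% and 10.1%. Because bulk pools were sequenced, less RNA of a kind in each oocyte and fewer oocytes that hold it cannot be told apart. CPM is a share of the library, and the RNA content of an oocyte is not given. A change in CPM thus need not be a change in RNA per oocyte.

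Total counts were 17671193 to 27418358 per pool. Summed CPM of 16 oocyte genes, with 1 gene at 0 in 1 pool and none in the others, was 16917 to 21811, so the markers of the labelled cell were abundant. Granulosa cells surround the oocyte, and the sum of 16 of their markers stood apart in 3 pools, at 862 CPM in PND 13 pool 1, at 996 CPM in PND 13 pool 3 and at 941 CPM in PND 16 small pool 2, against 412 to 548 CPM in the other 9. All 3 are non-competent pools. At most 1 of the 16 granulosa markers was at 0 in any pool. The 11 theca and stroma markers summed to 8.04 to 49.6 CPM and the 9 blood and immune markers to 0.518 to 3.00 CPM.

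Levels per length, in CPM per kilobase of the median protein-coding transcript in GENCODE M21, spanned a wide range. Mrpl9, a relative of a bacterial large-subunit protein, was highest with 70.3 CPM per kilobase over the 12 pools. Mrps22, a small-subunit protein found only in mitochondria, followed at 50.8 CPM per kilobase, then Mrpl17 at 38.0 and Mrpl24 at 36.7. This order depends on the length chosen. All annotated exons of Mrps22 hold 3991 bases, against the 1197 used here, and those of Mrpl17 hold 7605, against 743.5. The median of the tested members was 10.1 CPM per kilobase. At the low end stood Mrpl19 with 0.673 CPM per kilobase, Mrps10 with 1.03, Mrps36 with 1.18 and Mrps34 with 1.30. Mrpl23, at the exit of the tunnel for the new chain, was nearly without reads. It had 0 counts in 6 pools and 1 to 5 in the other 6, and 11.8% of its 50-base stretches recur elsewhere, foremost in its pseudogene Mrpl23-ps1.

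Members that share bases with other genes can gain or lose reads in counting. In GENCODE M21, 33 of the 78 share exon bases with another gene, 28 of them with a gene on the opposite strand. The libraries were directional, but the strand setting of the counting is not given in the sources used here. Of the 50-base stretches of their transcripts, the read length of the sequencing, more than 10% recur in transcripts of other genes for 21 members, and none do for 25, among them Mrps31 and Mrps22.

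Which members differed between competent and non-competent oocytes was asked first, with the 6 pools of each kind. Of the 77 tested, 14 (18.2%) were higher and 4 (5.19%) lower in competent oocytes at an adjusted p of at most 0.05 (edgeR quasi-likelihood test, Benjamini-Hochberg adjustment over 13943 genes). Over all tested genes, 14.2% were higher and 16.5% lower. The share of members that rose was thus near that of all genes, whereas the share that fell was lower than that of all genes. The median log2 fold change of the members was 0.14, against -0.0046 for all tested genes, and 53 of the 77 members had a positive value. Scaled by total counts alone, in place of TMM, 10 members were higher and 6 lower, with 29.9% of all genes called. Changes were small. With the 1.5-fold criterion of the study added, 5 members remained, 3 higher and 2 lower, while 15.0% of all genes passed both criteria in either direction.

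**Figure D2:**
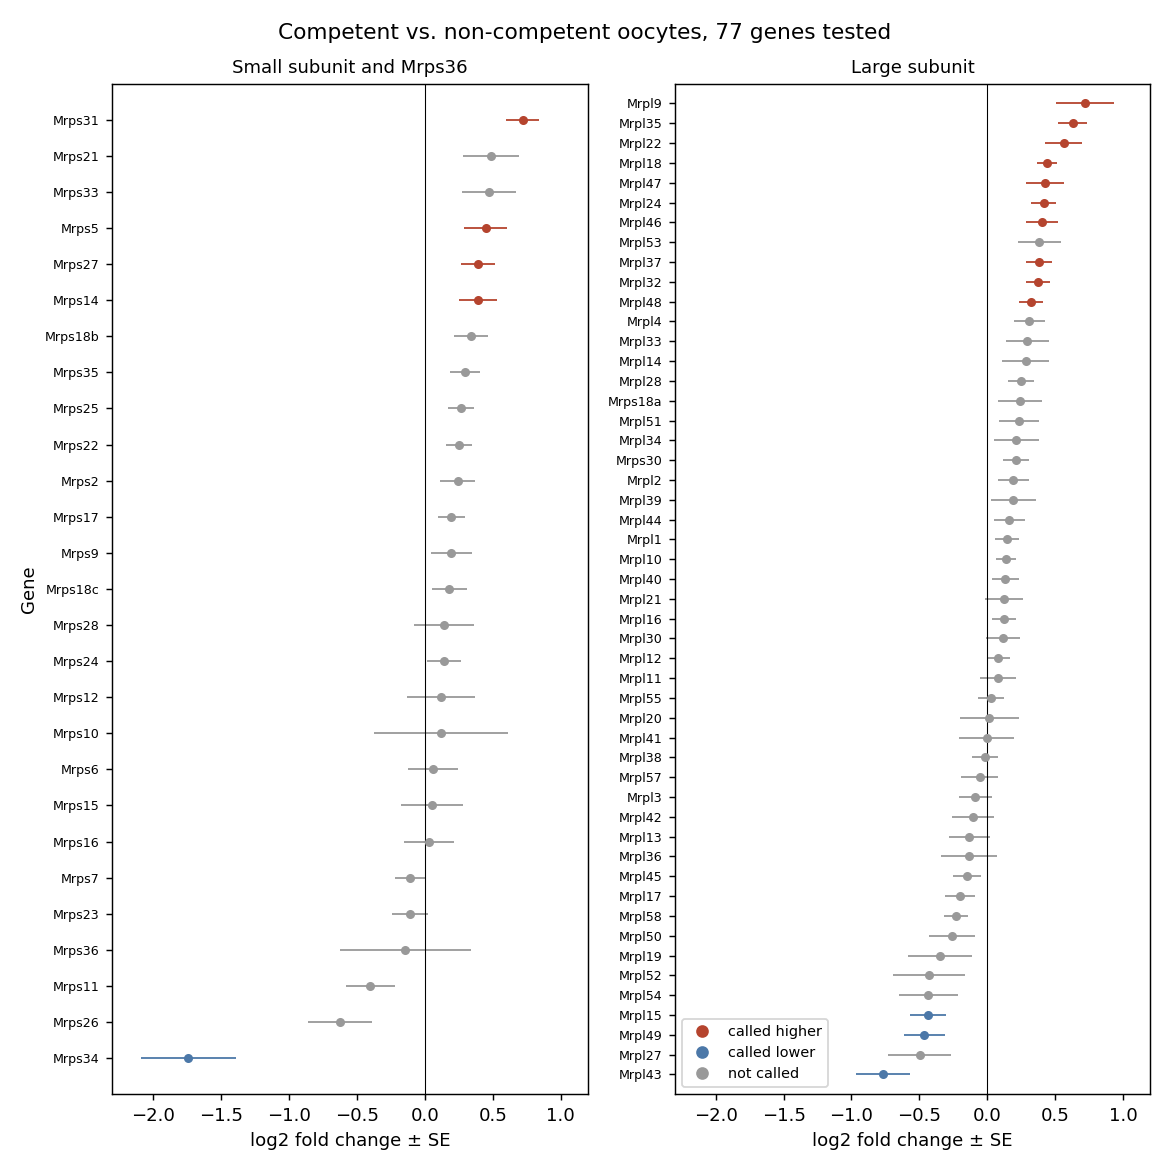
Log2 fold change in competent vs. non-competent oocytes (x axis) with its standard error for each of the 77 members tested (y axis), small subunit and Mrps36 on the left and large subunit on the right; red and blue points passed an adjusted p of 0.05. Most points lie within 0.5 of 0, with Mrps34 at -1.74 far below the others.

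Among small-subunit proteins, Mrps31 rose the most. Mrps31 encodes a protein of the small subunit that bacteria lack. Its level was 18.8, 21.7 and 17.6 CPM in the PND 13 pools, 19.7, 14.8 and 15.2 CPM in PND 16 small, 28.5, 27.3 and 25.4 CPM in PND 16 large and 36.0, 34.1 and 26.2 CPM at PND 40. Every competent pool exceeded every non-competent pool. The log2 fold change was 0.72 ± 0.12 (SE; adjusted p = 0.000653, edgeR), a 1.65-fold increase. Mrps5 (relative of the bacterial protein S5), Mrps27 and Mrps14 rose less, by 0.45 ± 0.16, 0.39 ± 0.12 and 0.39 ± 0.14 on the log2 scale, with adjusted p of 0.045, 0.0279 and 0.0452 (edgeR). The competent and non-competent pools of these 3 genes overlapped. The call of Mrps5 was lost when any 1 of 10 pools was left out (adjusted p = 0.053 to 0.113, edgeR), the exceptions being PND 13 pool 1 and PND 16 large pool 2.

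Mrpl35 and Mrpl18 had the clearest rise among large-subunit proteins. Mrpl35 (a relative of a bacterial large-subunit protein) was at 28.7, 35.1 and 23.4 CPM in the PND 13 pools and at 25.6, 31.3 and 23.6 CPM in PND 16 small, then at 45.1, 45.8 and 41.9 CPM in PND 16 large and at 46.4, 42.2 and 37.7 CPM at PND 40. The groups did not overlap, and the log2 fold change was 0.63 ± 0.11 (SE; adjusted p = 0.00068, edgeR). Mrpl18, of the family of ribosomal proteins that hold the small 5S RNA in other ribosomes, lay between 28.8 and 34.1 CPM in the 6 non-competent pools (median 31.1) and between 40.1 and 47.5 CPM in the 6 competent pools (median 41.6). This change, 0.44 ± 0.07 on the log2 scale (adjusted p = 0.000656, edgeR), was small but set the groups fully apart. Of its exon bases 10.1% lie opposite Tcp1, whose level did not pass the test (log2 fold change 0.02 ± 0.06, adjusted p = 0.852, edgeR).

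Mrpl22, whose family lines the exit tunnel, had 4.20, 5.82 and 5.40 CPM in the PND 13 pools, 4.28, 5.26 and 5.46 CPM in PND 16 small, 7.81, 7.50 and 7.48 CPM in PND 16 large and 7.76, 7.57 and 6.80 CPM at PND 40. Again each competent pool was above each non-competent pool (log2 fold change 0.56 ± 0.14, adjusted p = 0.00693, edgeR). Of its 50-base stretches 22.4% recur elsewhere, foremost in the gene model Gm6997.

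Mrpl9 changed as much as Mrps31 on average, by 0.72 ± 0.21 on the log2 scale (adjusted p = 0.022, edgeR), yet its pools differed widely. It was at 127, 48.6 and 122 CPM in the PND 13 pools, 61.0, 86.1 and 76.2 CPM in PND 16 small, 164, 154 and 155 CPM in PND 16 large and 107, 127 and 151 CPM at PND 40. Pools 1 and 3 of PND 13 thus lay within the range of PND 40. With PND 16 small pool 2 they were the 3 non-competent pools highest in Mrpl9. The same 3 pools had the high granulosa marker sums, and a link was not tested. The call was lost without PND 16 large pool 1 (log2 fold change 0.67, adjusted p = 0.0517, edgeR). No pairwise comparison of cohorts called Mrpl9, although its values were as large or larger in some: 1.08 ± 0.31 in PND 16 large vs. PND 16 small (adjusted p = 0.0502), 0.79 ± 0.31 in PND 40 vs. PND 16 small (0.0818), 0.67 ± 0.31 in PND 16 large vs. PND 13 (0.143) and 0.38 ± 0.31 in PND 40 vs. PND 13 (0.382, edgeR). In the first 3 of these the pools did not overlap. Its end overlaps Oaz3 on the opposite strand (5.81% of its exon bases), which was at 0.142 to 1.04 CPM in all pools.

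The remaining members called higher were Mrpl47 (0.42), Mrpl24 (0.42), Mrpl46 (0.40), Mrpl37 (0.38), Mrpl32 (0.37) and Mrpl48 (0.32 on the log2 scale), with SE of 0.09 to 0.14. Adjusted p (edgeR) was lowest for Mrpl24 at 0.00368 and highest for Mrpl47 at 0.0336. Mrpl24, of the family that starts large-subunit assembly in bacteria, overlaps Rrnad1 on the opposite strand with 26.3% of its exon bases. Rrnad1 itself was at 3.39 to 6.68 CPM and did not pass the test (log2 fold change -0.22 ± 0.19, adjusted p = 0.4, edgeR). Rab6a lies opposite 8.68% of the exon bases of Mrpl48 and was at 125 to 186 CPM. It rose too (0.29 ± 0.07 on the log2 scale, adjusted p = 0.00594, edgeR). The part of Rab6a reads in the counts of Mrpl48 was not tested. Opposite Mrpl47 lie Actl6a (10.2% of Mrpl47 exon bases) and Ndufb5 (13.9%). Neither passed the test (adjusted p = 0.299 and 0.376, edgeR). The call of Mrpl47 was lost without any 1 of 8 pools (adjusted p = 0.0503 to 0.0719, edgeR): PND 13 pool 3, PND 16 small pools 1 and 2, PND 40 pools 1 and 2 and each PND 16 large pool.

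Mrps34 fell the most. Mrps34 encodes another small-subunit protein restricted to mitochondria. Its level was 1.62, 2.54 and 1.76 CPM in the PND 13 pools, 2.53, 1.14 and 1.48 CPM in PND 16 small, 0.327, 0.908 and 0.677 CPM in PND 16 large and 0.343, 0.597 and 0.441 CPM at PND 40. All competent pools were below all non-competent pools, with a log2 fold change of -1.74 ± 0.35 (SE; adjusted p = 0.00203, edgeR), which is 0.299 of the non-competent level. The gene (chr17:24895116-24897502, GRCm38, plus strand) is enclosed by other genes: 63.4% of its exon bases overlap Mapk8ip3 on the opposite strand and 37.0% overlap Nme3 on the same strand. Mapk8ip3 was at 42.5 to 106 CPM, far above Mrps34, and fell too (log2 fold change -0.59 ± 0.17, adjusted p = 0.016, edgeR), whereas Nme3, at 4.39 to 7.89 CPM, did not pass the test (0.19 ± 0.16, adjusted p = 0.397, edgeR). The part of reads from Mapk8ip3 in the counts of Mrps34 was not tested.

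Lower large-subunit members were Mrpl43, Mrpl49 and Mrpl15. Mrpl43, a protein of mitochondria alone, was at 6.30, 5.04 and 6.96 CPM in the PND 13 pools, 4.47, 4.88 and 7.12 CPM in PND 16 small, 3.85, 4.54 and 3.58 CPM in PND 16 large and 3.00, 2.99 and 2.43 CPM at PND 40. The groups overlapped by 1 pool on each side, and the log2 fold change was -0.77 ± 0.20 (adjusted p = 0.00896, edgeR). Of its exon bases 33.4% lie opposite Twnk, which encodes the helicase of mitochondrial DNA and also fell (-0.35 ± 0.11, adjusted p = 0.0212, edgeR), at 25.6 to 44.2 CPM. The part of Twnk reads was not tested. Mrpl49 and Mrpl15 fell by 0.46 and 0.44 on the log2 scale (adjusted p = 0.0299 and 0.0229, edgeR). The call of Mrpl49 was lost without any 1 of 8 pools, namely PND 13 pools 1 and 3, PND 16 small pool 1, PND 16 large pools 1 and 3 and each PND 40 pool (adjusted p = 0.0517 to 0.0706, edgeR), and that of Mrpl15 without PND 40 pool 2 (0.0521) or 3 (0.0564).

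The 3 pools with the high granulosa marker sums were left out in an alternative chosen after those sums were seen. With 3 non-competent and 6 competent pools, 8 members were called, 5 higher and 3 lower, and 6 of the 8 were among the 18. Over all genes the share called was 18.2% in this fit and 30.7% with all pools. Mrps31 (0.65), Mrpl35 (0.62), Mrpl18 (0.52), Mrps34 (-1.98) and Mrpl9 (1.21 on the log2 scale) kept their calls. For Mrpl22 (0.53, adjusted p = 0.0514), Mrpl24 (0.33, 0.0598) and Mrpl43 (-0.70, 0.0704; edgeR throughout) the direction was kept and the call was not, and the same held for Mrps5, Mrpl47, Mrpl49 and Mrpl15 (adjusted p = 0.0879 to 0.102). The granulosa marker genes themselves had a median log2 fold change of -1.47 in competent vs. non-competent oocytes.

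Both subunits had members in both directions. Over all tested genes, 14.2% were higher and 16.5% lower. Of the 26 small-subunit members 4 (15.4%) were higher and 1 (3.85%) lower. Of the 50 large-subunit members tested 10 (20%) were higher and 3 (6%) lower. Median log2 fold changes were 0.19 for the small and 0.13 for the large subunit. By descent, 6 of 26 members with relatives in all ribosomes (23.1%) rose and 1 (3.85%) fell. Of 20 with relatives in bacteria alone 3 (15%) rose and none fell (edgeR), while 6 of the 20 had an unadjusted p under 0.05. Of 30 found only in mitochondria 5 (16.7%) rose and 3 (10%) fell. The medians were 0.14, 0.13 and 0.15.

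Further members with a listed role or a link to disease are given next, none of which passed the edgeR test of competent vs. non-competent oocytes. Mrps22, whose human counterpart is linked to ovarian insufficiency, was at 54.0, 54.3 and 47.6 CPM in the PND 13 pools, 60.2, 59.5 and 57.9 CPM in PND 16 small, 69.6, 65.6 and 74.4 CPM in PND 16 large and 77.3, 56.9 and 52.9 CPM at PND 40. The PND 16 large pools lay above all non-competent pools and the PND 40 pools were spread over the whole range, with a log2 fold change of 0.25 ± 0.10 (adjusted p = 0.067, edgeR). It passed the threshold without PND 40 pool 2 (adjusted p = 0.0484) or pool 3 (0.0251) and as a contrast of cohort means (0.0382, edgeR). Mrps7 and Mrpl50, with links of the same kind, had log2 fold changes of -0.11 ± 0.11 (adjusted p = 0.494) and -0.26 ± 0.17 (0.251, edgeR).

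Mrps12, at the decoding centre, had 0.12 ± 0.25 (adjusted p = 0.747, edgeR). The stalk that binds translation factors is built from Mrpl10 and Mrpl12, with log2 fold changes of 0.14 ± 0.08 (adjusted p = 0.187) and 0.08 ± 0.09 (0.507, edgeR). Mrpl1, of the stalk on the other side of the large subunit, had 0.15 ± 0.09 (adjusted p = 0.22), and Mrpl45, which tethers the ribosome to the inner membrane, -0.15 ± 0.10 (0.297, edgeR). The paralogs Mrps18a, Mrps18b and Mrps18c descend from 1 bacterial protein, the first serving in the large and the others in the small subunit. Their log2 fold changes were 0.24 ± 0.16, 0.34 ± 0.13 and 0.18 ± 0.13 (adjusted p = 0.27, 0.0544 and 0.307, edgeR), and Mrps18b, just short of the threshold, passed it in 6 alternatives: DESeq2 (adjusted p = 0.0268) and, by edgeR, omission of PND 13 pool 2 (adjusted p = 0.0287), a minimum count of 50 (0.0456), upper-quartile factors (0.048), a contrast of cohort means (0.0486) and a replicate block (0.0495).

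**Figure D3:**
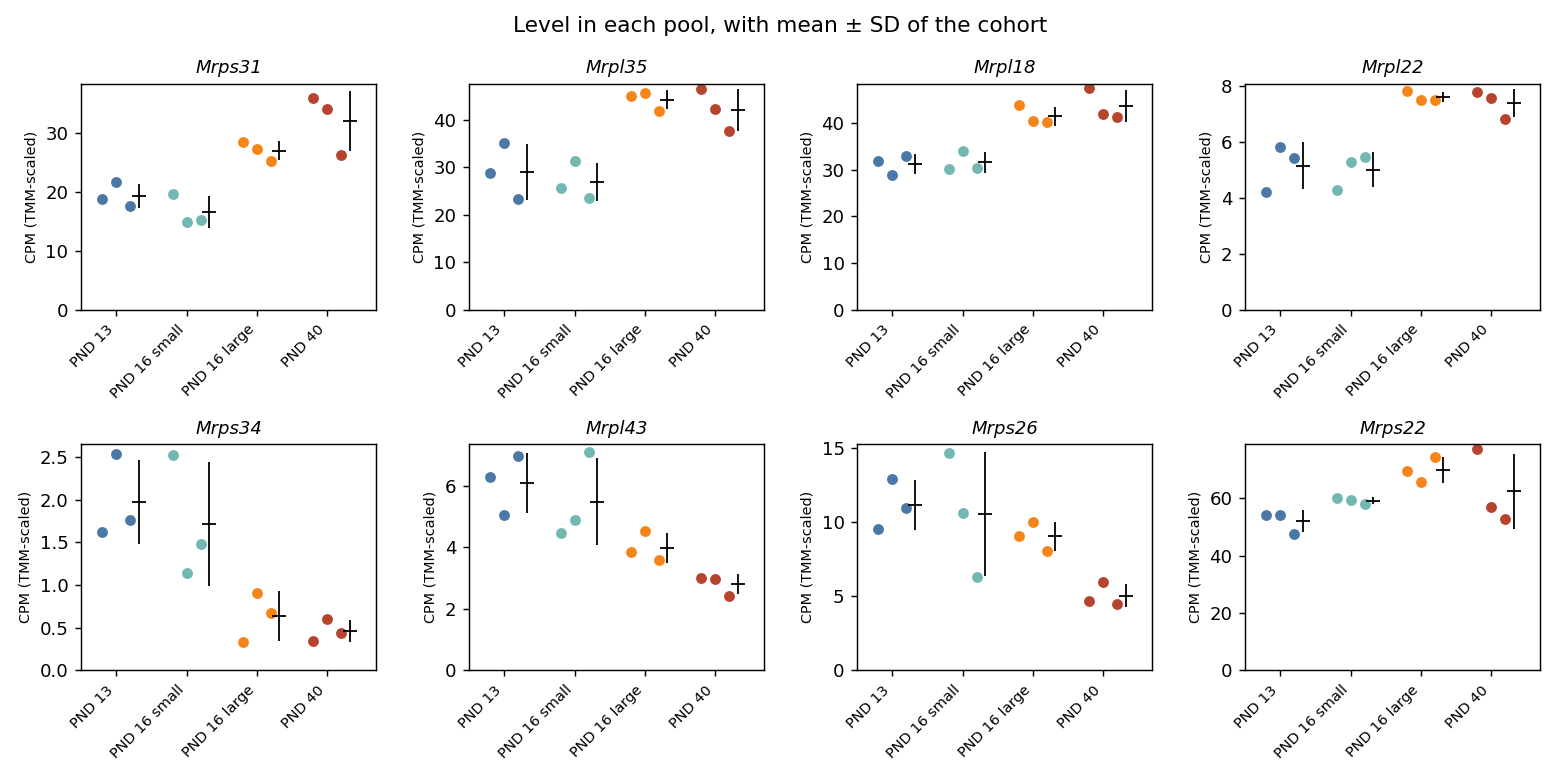
TMM-scaled CPM (y axes, linear, from 0) of 8 members in each pool of the 4 cohorts (x axes), with the mean ± SD of the 3 pools in black. Mrps31, Mrpl35, Mrpl18 and Mrpl22 are higher in every PND 16 large and PND 40 pool than in any other pool, Mrps34 is lower in every one of them, Mrps26 is lowest at PND 40, and the PND 40 pools of Mrps22 are spread from 52.9 to 77.3 CPM.

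The 4 cohorts were then compared in pairs, in 1 model of all pools. Comparisons that have a cohort in common share its pools. PND 40 vs. PND 16 small had 18 members higher (14.5% of all genes) and 3 lower (15.7% of all genes). With only the compared cohorts fitted, 16 members were called in PND 40 vs. PND 13 (37.6% of all genes), in place of 17. In PND 40 vs. PND 16 small 13 were called (24.4% of all genes), in place of 21. Both criteria of the study were met by 11 members (17.2% of all genes). Among called members the largest changes were those of Mrps31 (0.95 ± 0.15, adjusted p = 0.000568), Mrps5 (0.77 ± 0.19, 0.00868) and Mrpl53 (0.72 ± 0.18, 0.00998) upwards, and of Mrps34 (-1.88 ± 0.51, 0.014), Mrps26 (-1.07 ± 0.26, 0.00842) and Mrpl43 (-0.97 ± 0.25, 0.0107; edgeR) downwards. For Mrpl53, 88.0% of exon bases are shared with the gene model Gm42688 on the same strand. Leaving out PND 40 pool 1 or pool 2 brought the number of calls from 21 to 12 and 13. Over all genes the share called went from 30.2% to 20.4% and 21.6%. The call of Mrps34 was lost without PND 40 pool 1 (adjusted p = 0.0596) or PND 16 small pool 1 (0.0544, edgeR).

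Mrps26 differed at PND 40 from both younger non-competent cohorts. This protein of the small subunit has no bacterial relative. It was at 9.55, 12.9 and 11.0 CPM in the PND 13 pools, 14.7, 10.6 and 6.29 CPM in PND 16 small, 9.04, 10.02 and 8.04 CPM in PND 16 large and 4.68, 5.93 and 4.48 CPM at PND 40. The PND 40 pools were the lowest of all 12. Compared with PND 13, the log2 fold change at PND 40 was -1.15 ± 0.26 (adjusted p = 0.00496, edgeR), while in competent vs. non-competent oocytes it was -0.63 ± 0.24 (adjusted p = 0.0576, edgeR).

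In PND 40 vs. PND 13, 11 members were higher (16.3% of all genes) and 6 lower (16.7% of all genes), and 6 met both criteria (18.9% of all genes). With total counts alone the split was 7 higher and 8 lower, with 31.3% of all genes called. Among called members, Mrps31 (0.73 ± 0.15, adjusted p = 0.0026), Mrpl35 (0.53 ± 0.15, 0.0151) and Mrpl46 (0.49 ± 0.16, 0.0295; edgeR) led upwards. Downwards, Mrps34 (-2.09 ± 0.51, adjusted p = 0.00724), Mrps26 and Mrpl43 (-1.12 ± 0.25, 0.00415; edgeR) led. The number of calls fell from 17 to 9 without PND 13 pool 3 and also without PND 40 pool 1. Over all genes the share called fell from 33.1% to 22.2% and 22.8%. Without either pool, the calls of Mrpl35 (adjusted p = 0.0751 and 0.0678) and of Mrpl46 (0.123 and 0.0804, edgeR) were lost. That of Mrpl46 was also lost without PND 40 pool 2 (adjusted p = 0.105) or PND 16 large pool 3 (0.0533, edgeR).

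PND 16 large vs. PND 13 had 7 members higher (12.6% of all genes) and 1 lower (13.0% of all genes), with 2 meeting both criteria (13.3% of all genes). With total counts alone (23.5% of all genes called) 2 were higher and 4 lower, and 3 of these 6 were among the 8. Among those called, the highest were Mrpl35 (0.61 ± 0.15, adjusted p = 0.0105), Mrpl22 (0.56 ± 0.19, 0.0483) and Mrps31 (0.48 ± 0.15, 0.0317), and the lower one was Mrps34 (-1.62 ± 0.50, 0.0301; edgeR). Mrps22 was higher in this comparison (0.43 ± 0.13, adjusted p = 0.0239, edgeR). The 8 calls fell to 5 without PND 13 pool 1, to 1 without PND 13 pool 3 or PND 16 large pool 1 and to 2 without PND 16 large pool 3. Of all genes, 25.6% were called with all pools and 20.3%, 14.6%, 13.6% and 16.9% in these fits, in the same order. The call of Mrpl22 was lost without any 1 of 10 pools, all but PND 16 small pools 1 and 3 (adjusted p = 0.0523 to 0.157, edgeR). That of Mrps31 was lost without PND 13 pool 1 or 3 or any PND 16 large pool (0.0627 to 0.124), that of Mrps34 without PND 13 pool 2 or 3 or PND 16 large pool 1 or 3 (0.0631 to 0.118) and that of Mrpl35 without PND 13 pool 3 (0.0531).

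Mice of the same age were compared in PND 16 large vs. PND 16 small. Here 5 members were higher (4.98% of all genes) and none lower (7.32% of all genes; edgeR), while 20 had an unadjusted p under 0.05. Both criteria were met by 2 (6.19% of all genes). The 5 were Mrpl35 (0.72 ± 0.15, adjusted p = 0.00949), Mrps31 (0.71 ± 0.15, 0.0108), Mrpl37 (0.41 ± 0.13, 0.0462), Mrpl18 (0.39 ± 0.10, 0.0262) and Mrpl24 (0.36 ± 0.11, 0.0451; edgeR). All 5 were also among the 17 members called in PND 40 vs. PND 13, in the same direction, and these comparisons have no pool in common, though 1 model gave the spread for both (100% of the 5 and 29.4% of the 17). Of all genes called, 74.9% and 27.8% were called in both in the same direction. Calls numbered 1 without PND 16 large pool 1, 2 without PND 16 large pool 2 or 3 or PND 16 small pool 3, and 3 without PND 13 pool 3 or any PND 40 pool. Of all genes, 12.3% were called with all pools. In these fits, in the same order, it was 3.46%, 5.07%, 7.85%, 8.07%, 11.2%, 9.86%, 8.99% and 9.78%. Mrps31 lost its call without PND 16 large pool 1 (adjusted p = 0.0577, edgeR), and Mrpl37 without any 1 of 9 pools (0.0609 to 0.136), all but PND 13 pools 1 and 2 and PND 16 small pool 1.

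PND 40 vs. PND 16 small also has no pool in common with the comparison of PND 16 large to PND 13. Mrpl18, Mrpl22, Mrpl32, Mrpl35, Mrps31 and Mrps34 were called in both, in the same direction. They are 75.0% of the 8 and 28.6% of the 21 members called, against 43.8% and 37.1% of all genes called. With 8 members called, this difference was not tested.

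Between the 2 non-competent cohorts no member was called. In PND 16 small vs. PND 13 the edgeR test called 0 of 77 higher (0.689% of all genes) and 0 lower (0.237% of all genes), 0 met both criteria (0.373% of all genes), and 4 members had an unadjusted p under 0.05. DESeq2 called 1. Without PND 13 pool 2 the edgeR test called 1 (0.637% of all genes in that fit), and without PND 16 small pool 1 it called 4, when 11.97% of all genes were called. The median log2 fold change was -0.09, with 55 of 77 members below 0, and single values ran from -0.58 to 0.36.

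Between the 2 competent cohorts no member was called either. In PND 40 vs. PND 16 large 0 members were called higher (3.59% of all genes) or lower (3.24% of all genes) by edgeR, 0 met both criteria (3.66% of all genes), and 8 had an unadjusted p under 0.05. DESeq2 called 3. Leaving out PND 13 pool 2, PND 16 small pool 1 or PND 16 small pool 3 gave 1, 3 and 1 calls, while 7.49%, 9.80% and 8.89% of all genes were called in these fits. The median was -0.0040, with values from -0.84 to 0.68. Over all 7 comparisons 27 members (35.1%) were called at least once and 50 in none, and 51.3% of all tested genes were called at least once.

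**Figure D4:**
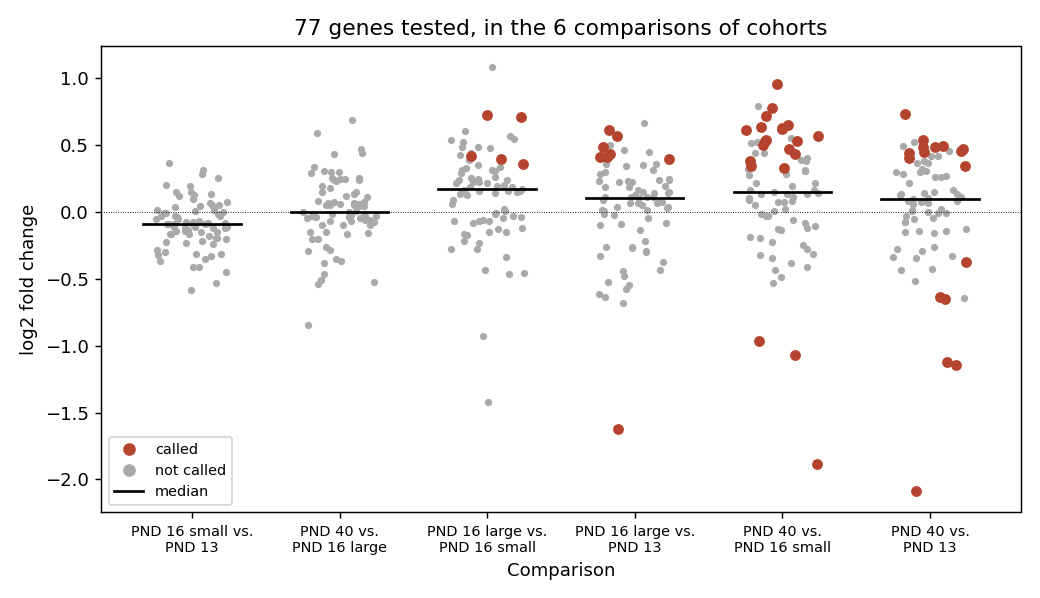
Log2 fold changes (y axis) of the 77 members tested in each of the 6 comparisons of cohorts (x axis), with called members in red and the median as a black line. No point is red where PND 16 small is set against PND 13 or PND 40 against PND 16 large, and the medians of the other 4 comparisons lie above 0, between 0.09 and 0.17.

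**Figure D5:**
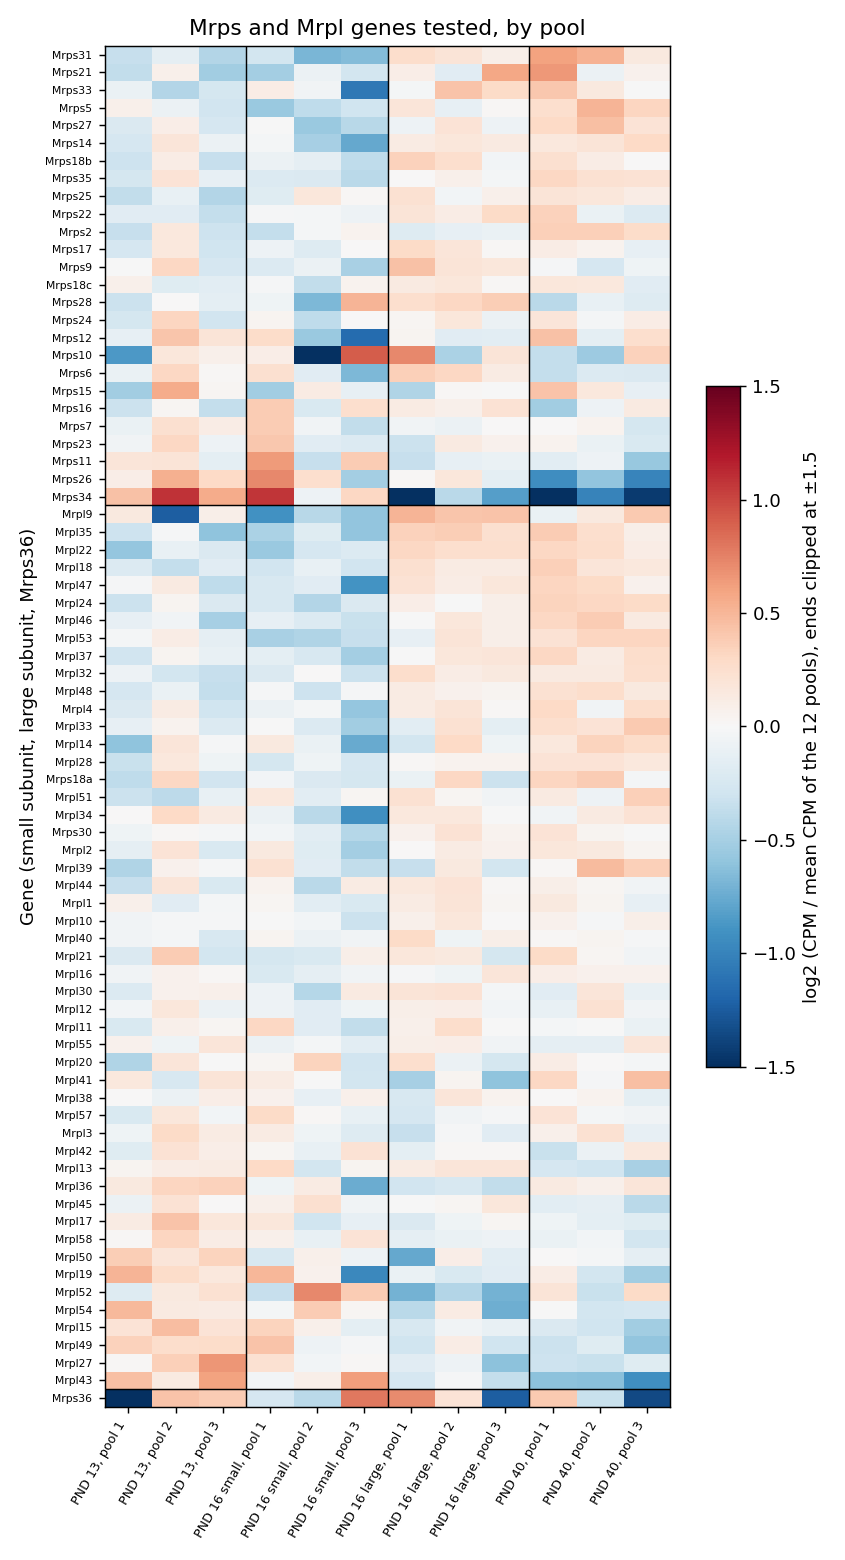
Log2 of the CPM over the mean of the 12 pools (colour, clipped at 1.5 in either direction) for the 77 members tested (rows, small subunit, large subunit and Mrps36, each by fold change) in each pool (columns). Red prevails in the PND 16 large and PND 40 columns of the upper rows of each subunit, as for Mrps31 and Mrpl35, blue in those of Mrps34 and Mrpl43, and the pools of Mrps36 differ without order.

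Other genes of mitochondrial translation were counted in lists compiled by hand, to be read beside the 14.2% of all genes that were higher and the 16.5% that were lower. Of 5 ribosome proteins with other symbols, 2 were higher in competent oocytes and none lower (edgeR; 2 had an unadjusted p under 0.05). They were Dap3, the GTP-binding protein of the small subunit (0.34 ± 0.07, adjusted p = 0.00198), and Gadd45gip1 of the large subunit (0.18 ± 0.06, 0.0305; edgeR). Dap3 was at 104 to 133 CPM in the 6 non-competent pools and at 139 to 158 CPM in the 6 competent pools, without overlap.

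Of 25 assembly factors, 3 were higher and 4 lower. Higher were the GTPase Gtpbp10 (0.55 ± 0.12, adjusted p = 0.00284), the RNA-binding Fastkd2 (0.51 ± 0.17, 0.0319) and Nsun4, which methylates the small ribosomal RNA (0.50 ± 0.08, 0.000575; edgeR). Lower were the RNA methyltransferases Mrm3 (-2.03 ± 0.46, adjusted p = 0.00435) and Mrm2 (-1.25 ± 0.36, 0.016), the nuclease Ybey (-1.78 ± 0.55, 0.024) and Eral1, a chaperone of the small ribosomal RNA (-0.56 ± 0.12, 0.00369; edgeR). Mrm3, Mrm2 and Ybey were low, with at most 2.34 CPM in any pool. The shares, 12% and 16%, were near those of all genes.

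Of 16 factors of mitochondrial translation itself, 2 were higher and none lower (edgeR; 3 had an unadjusted p under 0.05). They were Mrrf (0.48 ± 0.10, adjusted p = 0.00318) and Gfm2 (0.31 ± 0.10, 0.0337; edgeR), which together split the ribosome after termination. Mrrf was at 11.0 to 15.1 CPM in non-competent pools and at 16.8 to 18.7 CPM in competent pools.

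Of 16 regulators and enzymes of mitochondrial transcription and DNA upkeep, 1 was higher, Pprc1 (0.25 ± 0.09, adjusted p = 0.0371), and 5 were lower (edgeR). Gabpa, an ETS factor, was at 11.0 to 16.7 CPM in the 6 non-competent pools, at 5.40, 4.42 and 7.2 CPM in PND 16 large and at 3.17, 2.83 and 2.87 CPM at PND 40 (-1.69 ± 0.23, adjusted p = 0.000167, edgeR). Yy1 fell by 1.10 (adjusted p = 0.000578), Tfam, the packaging protein of mitochondrial DNA, by 0.96 (1.2e-05) and Polg2, a subunit of its polymerase, by 0.84 on the log2 scale (0.0156; edgeR). Nrf1 did not pass the test (-0.11 ± 0.14, adjusted p = 0.584, edgeR). Among members with a promoter in the table, the ETS core was present in 4 of the 14 that rose and in 1 of the 2 that fell, the YY1 core in 4 of 14 and 1 of 2, and the NRF1 core in 3 of 14 and 0 of 2.

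Ribosomal proteins of the cytosol served as the nearest other group. Of 85 symbols of that kind 59 were tested. In competent oocytes 2 (3.39%) were higher and 1 (1.69%) lower, against 14.2% and 16.5% of all genes. Their median log2 fold change was 0.07. Many of these genes have processed pseudogenes in the genome, and how reads with several matches were counted is not given in the sources used here.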

How the data were processed

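RNA-Seq was performed on 12 pools of oocytes, 3 per cohort, from rRNA-depleted directional libraries with 50-base reads. The authors deposited raw read counts per gene, which were used here without change, and a log2 table derived from them, which was not used. The submitters' processing notes name FastQC, STAR, HTSeq, DESeq2 and the build mm10, without versions. Cohorts were taken from the sample labels, and the labels do not tell the animals of the pools. The study describes the pools of a cohort as independent and made with oocytes from 3 mice per cohort. Whether each pool came from a single mouse is not stated.

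Genes were kept by filterByExpr (minimum count 10; 13943 of 24562) and scaled by TMM (factors 0.954 to 1.07). The quasi-likelihood test of edgeR 4.0.16 in R 4.3.3 (robust) was run on all 12 pools, with the 4 cohorts as groups for pairs of cohorts and with 2 groups for competent vs. non-competent oocytes. The p-values were adjusted by Benjamini-Hochberg over all tested genes, and an adjusted p of at most 0.05 is named a call. The study's criteria, which add a 1.5-fold change, are given beside it. SE was approximated as the size of the log2 fold change over the root of the F statistic. The fits were tested on simulated counts. Counts carry no molecular identifiers, so the spread between pools served as error.

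Named were, in competent vs. non-competent oocytes, up to 8 members with the largest change in each direction (up to 3 per pair of cohorts), members with a listed role, those with extreme levels per length and up to 4 called genes per other list. The other members called higher there, Mrps22 in PND 16 large vs. PND 13, Mrpl17, Mrpl19, Mrps10 and Mrps36 for their levels, and the genes that overlap members were added after their values were seen. Members, lists and promoters to show were chosen with earlier results of these data known. Gene models are those of GENCODE M21 (GRCm38, the assembly of mm10). Promoters come from RefSeq (GRCm38.p6). Alternatives were DESeq2 1.42.0, other scalings (RLE, upper quartile, total counts), other count filters, a replicate block, only the cohorts compared, a contrast of cohort means and leaving out each pool. Python 3.11.15 and matplotlib 3.10.9 were used for annotation and figures.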

Additional observations from a re-analysis of the deposited data

Results flagged for a closer look

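In 27 named members and in the summed level, the 6 pools of each kind were tested for a pool that stands apart by Dixon's criterion. Chance flags about 1 in 20 such groups, and 4 of 56 were flagged. Mrpl22 was at 6.80 CPM in PND 40 pool 3, below the other competent pools, of which the nearest had 7.48 CPM. Mrpl50 was at 4.58 CPM in PND 16 large pool 1, with 7.01 CPM in the nearest competent pool. Mrpl12 reached 33.4 CPM in PND 13 pool 2, where the nearest non-competent pool had 28.8 CPM. Mrpl10 was at 29.4 CPM in PND 16 small pool 3, against 35.4 CPM in the nearest non-competent pool. The 4 flags fell in 4 different pools.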

How the results depend on the processing

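Where the main fit or an alternative called a named member, its direction did not change. Where neither called it, direction was not compared. Of 859 alternative values of 42 log2 fold changes, 758 stayed on their side of the threshold, 92 lost the call and 9 gained it (6 of Mrps18b and 3 of Mrps22). With the 1.5-fold criterion added, the calls fell to 5 in competent vs. non-competent oocytes, 6 in PND 40 vs. PND 13, 2 in PND 16 large vs. PND 13, 11 in PND 40 vs. PND 16 small and 2 in PND 16 large vs. PND 16 small. Without the 3 pools of high granulosa marker sum, 8 members were called, with fewer pools in the fit. For PND 16 large vs. PND 16 small, calls numbered 12 by DESeq2, 8 with a minimum count of 50, 3 without a filter and 3 with only these cohorts fitted. In the same order, these fits called 18.5%, 16.6%, 7.58% and 5.52% of all genes. DESeq2 called 1 member in PND 16 small vs. PND 13 (7.35% of all genes). In PND 40 vs. PND 16 large 3 were called by DESeq2, 5 with only these cohorts and 1 with total counts alone. These fits called 12.3%, 21.9% and 6.61% of all genes. Only the compared cohorts gave 13 calls in PND 40 vs. PND 16 small, fewer than the 16 in PND 40 vs. PND 13. Without PND 16 small pool 3 these numbered 17 and 18. The shares of all genes called were 24.4% and 37.6% with only the compared cohorts, and 25.6% and 34.9% without that pool. The cause of these shifts was not tested. DESeq2 called 26 members in competent vs. non-competent oocytes, 20 higher and 6 lower, among them all 18 of the edgeR test. Of all genes it called 35.1% there. With single pools left out there were 9 to 19 calls in PND 40 vs. PND 13, 1 to 10 in PND 16 large vs. PND 13, 12 to 21 in PND 40 vs. PND 16 small, 1 to 7 in PND 16 large vs. PND 16 small, 0 to 4 in PND 16 small vs. PND 13, 0 to 3 in PND 40 vs. PND 16 large and 12 to 22 in competent vs. non-competent oocytes. In the same order, the share of all genes called in these fits was 22.2 to 36.1%, 13.6 to 28.5%, 20.4 to 30.7%, 3.46 to 13.7%, 0.0281 to 11.97%, 2.38 to 9.80% and 24.1 to 31.5%. Total counts alone moved the median of all genes to -0.13 in PND 16 large vs. PND 13 and to -0.12 for PND 16 small against PND 13, and the mean summed level of PND 16 large from 1439 to 1410 and that of PND 13 from 1269 to 1328 CPM. Beside the losses given with the members, total counts alone ended the calls of Mrps5 and Mrpl47 (competent vs. non-competent), Mrpl22 and Mrps31 (PND 16 large vs. PND 13), Mrpl46 (PND 40 vs. PND 13) and Mrpl37 (PND 16 large vs. PND 16 small). In the same comparisons, no filter ended those of Mrps5, Mrpl22, Mrpl46 and Mrpl37 and, in competent vs. non-competent oocytes, that of Mrpl49, only the compared cohorts those of Mrpl22, Mrpl46 and Mrpl37, and upper-quartile factors that of Mrpl22. Deviations of pools with the same replicate number correlated at -0.44 to 0.08. Pools with different numbers were not set beside them, so these values cannot tell whether the numbers pair the pools. With the replicate number as a block, 17 members were called in competent vs. non-competent oocytes, 15 in PND 40 vs. PND 13, 7 in PND 16 large vs. PND 13, 18 in PND 40 vs. PND 16 small, 4 in PND 16 large vs. PND 16 small and 0 in the other 2 comparisons, and the same calls of Mrps5, Mrpl22 and Mrpl37 were lost. Depth limits Mrpl23, with at most 5 counts in a pool, Mrps36 (at most 1.30 CPM), Mrps10 (1.96) and Mrps34 (2.54).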
